A study of Mus musculus with 24 samples.

Results

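Transcripts of the proteasome subunits were examined in mouse thymocytes after irradiation. The set was defined as the genes Psma1 to Psma7, Psmb1 to Psmb10, Psmc1 to Psmc6, Psmd1 to Psmd14 and Psme1 to Psme4, 41 genes in all, each represented by the array feature with the highest mean thymocyte signal among the features whose accession named it. Of these 41 genes, 40 had such a feature, among 55681 features on the array. Psmb8, Psmb9, Psmb10, Psme1 and Psme2 were taken as the 5 immune subunits and the remaining 36 genes as the constitutive subunits. No feature was assigned to Psme2, so 4 immune subunits were measured.

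RNA came from primary thymocytes of male and female C57BL/6J mice aged 4 to 5 weeks, with 3 arrays for each sex and condition, 1 mouse per array, and 24 arrays in 8 groups. Controls were not irradiated. The high dose group received 1.75 Gy of γ-rays, the low dose group 0.075 Gy of X-rays, and the RAR group (radio-adaptive response) a priming 0.075 Gy of X-rays and, after 6 h, 1.75 Gy of γ-rays. The labels speak of irradiated thymocytes while the methods describe irradiation of the mice, the thymus was dispersed and strained without sorting, and the time from irradiation to harvest is not given in the sources used here. Each array compared thymocyte RNA in Cy5 with a common mouse reference RNA in Cy3, and every level below is log2(thymocyte/reference), so that 0 means equal signal and 1 a doubling. A change was called where the adjusted p (limma, Benjamini-Hochberg over all features) was below 0.05 and the change was at least 1.5-fold.

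The proteasome is the protease that degrades proteins tagged with ubiquitin. Its core is a stack of rings of α and β subunits, of which the β subunits Psmb5, Psmb6 and Psmb7 carry the catalytic sites, and its regulatory particle holds ATPases that unfold substrates and non-ATPase subunits that bind and remove ubiquitin. In immune cells and under interferon, Psmb8, Psmb9 and Psmb10 take the places of Psmb5, Psmb6 and Psmb7, and the activator formed by Psme1 and Psme2 can cap the core; peptides cut by this form are loaded on MHC class I molecules. In the thymus, cortical epithelial cells carry a further catalytic subunit, Psmb11.

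The sequences upstream of the immune genes are shown because interferon acts on these genes through short DNA elements, with those of Psmb5, a constitutive counterpart, and Psmd9, the constitutive subunit that fell most, for comparison. They are the 250 bases before the annotated start, from RefSeq on the mouse build GRCm38.p6, written in the direction of the gene. Capitals mark matches on either strand to the interferon-stimulated response element core (GAAA, any 2 bases, GAAA), the gamma-activated site TTCNNNGAA or the antioxidant response element core TGACNNNGC.
Psmb8, chr17:34197945-34198194, strand plus: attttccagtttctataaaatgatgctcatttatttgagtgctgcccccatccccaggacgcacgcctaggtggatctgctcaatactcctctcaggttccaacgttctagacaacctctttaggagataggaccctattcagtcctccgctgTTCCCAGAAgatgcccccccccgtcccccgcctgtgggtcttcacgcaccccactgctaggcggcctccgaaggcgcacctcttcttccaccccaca
Psmb9, chr17:34187331-34187580, strand minus: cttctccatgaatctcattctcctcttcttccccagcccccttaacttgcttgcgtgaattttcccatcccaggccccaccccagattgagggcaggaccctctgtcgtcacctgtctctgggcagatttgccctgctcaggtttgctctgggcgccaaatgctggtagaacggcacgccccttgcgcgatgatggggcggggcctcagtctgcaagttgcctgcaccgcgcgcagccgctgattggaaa
Psmb10, chr8:105938393-105938642, strand minus: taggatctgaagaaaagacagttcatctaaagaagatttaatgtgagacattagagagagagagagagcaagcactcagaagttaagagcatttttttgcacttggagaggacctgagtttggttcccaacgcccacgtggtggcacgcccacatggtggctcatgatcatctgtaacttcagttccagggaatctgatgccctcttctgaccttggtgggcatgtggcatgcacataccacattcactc
Psme1, chr14:55578244-55578493, strand plus: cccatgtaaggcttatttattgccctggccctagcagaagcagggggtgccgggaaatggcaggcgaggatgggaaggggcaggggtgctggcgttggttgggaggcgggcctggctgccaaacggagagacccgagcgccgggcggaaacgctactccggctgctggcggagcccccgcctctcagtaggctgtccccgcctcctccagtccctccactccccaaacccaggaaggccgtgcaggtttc
Psmb5, chr14:54617996-54618245, strand minus: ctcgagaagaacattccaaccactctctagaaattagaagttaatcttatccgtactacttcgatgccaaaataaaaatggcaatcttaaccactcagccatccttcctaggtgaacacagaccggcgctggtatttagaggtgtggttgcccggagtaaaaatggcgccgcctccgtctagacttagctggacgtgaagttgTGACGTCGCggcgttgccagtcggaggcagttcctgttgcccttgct
Psmd9, chr5:123227940-123228189, strand plus: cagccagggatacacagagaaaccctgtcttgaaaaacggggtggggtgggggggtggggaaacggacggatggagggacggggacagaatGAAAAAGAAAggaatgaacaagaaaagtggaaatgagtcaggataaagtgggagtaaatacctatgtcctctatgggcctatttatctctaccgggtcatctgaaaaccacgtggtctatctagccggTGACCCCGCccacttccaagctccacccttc
In Psme1 a match to the response element core, on the minus strand, lay just after the start, at bases 10 to 19, and is shown as a stretch of 30 bases:
Psme1, chr14:55578493-55578522, strand plus: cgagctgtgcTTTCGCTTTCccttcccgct
Windows of 300 bases, 250 before and 50 after the start, were available for 35 member genes. The response element core occurred in those of 4 (Psmb3, Psmd4, Psmd9 and Psme1) against 3.44% of all 32851 windows, TTCNNNGAA in 2 (Psmb8 and Psmd2) against 8.30%, and TGACNNNGC in 6 (Psmb5, Psmb6, Psmc6, Psmd9, Psmd12 and Psme4) against 12.4%. TTCNNNGAA is its own reverse complement, and no matches of different motifs overlapped in the sequences printed. Psmb9 and Psmb10 had none of the 3 motifs in their windows. A match is a description of the letters and not evidence of binding.

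All 40 subunits were well above background in both channels on 24 of 24 arrays, and none was saturated. The arrays were alike in brightness except in the female RAR group, where 34.7% of features were above background in Cy5 on replicate 3 and 71.8% on replicate 2, against 49.3% to 62.8% outside that group. Double-positive thymocyte markers were above background on every array for 12 of 12 genes. Among markers of other cells, 10 of 13 myeloid genes rose in RAR against control, where 12.4% of all features rose and 13.7% fell, and their mean level was 0.79 to 1.27 in controls, 1.47 to 1.68 at low dose, 1.45 to 1.98 at high dose and 2.21 to 2.83 in RAR. Of the mature T cell markers 5 of 8 and of the dendritic cell markers 3 of 8 rose in RAR against control, and of the proliferation genes 6 of 12 fell in RAR against control. Of 11 thymic epithelial markers 3 rose and 4 fell in RAR, and their mean level was 0.39 in controls, -0.27 at low dose, -0.26 at high dose and -0.11 in RAR. This mean includes Psmb11, at 3.93 in controls, -0.05 at low dose, -0.40 at high dose and -0.15 in RAR. The mean of the list without Psmb11 is not given here, so its drop is not read as one of the whole list. In these unsorted samples fewer cells of a type and less RNA per cell cannot be told apart, and the part of these shifts in the results below was not tested.

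In unirradiated thymocytes all 4 immune subunits were above 0, the reference level, in the control mean, with a median of 1.33, while 22 of 36 constitutive subunits were above 0 and their median was 0.09. Psmb8, which replaces the chymotrypsin-like subunit, had the highest immune value, 2.28 ± 0.05 (SD, n = 6), or 4.87 times the reference, and Psme1 the lowest, 0.39 ± 0.11. Because the reference is a pool of RNAs, these values rank each gene against that pool and not the subunits against each other.

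RAR raised 3 of the 4 immune subunits and lowered 30 of the 36 constitutive ones by adjusted p. Against control, 2 of 40 members rose (Psmb10 and Psme3) and 11 fell, where 12.4% of all features rose and 13.7% fell. By adjusted p alone 4 rose and 30 fell, against 16.6% and 21.8% of all features. Of the features above background in Cy5 on every array, called bright features below, 42.1% fell. These were not matched to the members in brightness. The falls by adjusted p did not all hold in every alternative. In RAR the adjusted p (limma) reached 0.63 for Psmb4 and 0.65 for Psmd11, and 1.73e-05 for Psma6. The median change was 0.46 for the immune and -0.38 for the constitutive subunits, beside -0.03 over all features. The 6 RAR arrays lay wholly apart from the 6 control arrays for 29 of 40 members, 25 of them lower, against 24.9% of all features. The control arrays were on slide 3, except male control replicate 1 on slide 2. All RAR and high dose arrays were on slides 1 and 2. Slide and treatment therefore largely coincided, and the part of slide in this separation was not tested.

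Psmb10, which takes the place of the trypsin-like subunit Psmb7, changed most among the immune subunits. Its level in controls was 0.88, 1.06 and 0.94 in females and 0.91, 1.08 and 0.96 in males, and in RAR 1.82, 2.00 and 2.05 in females and 2.07, 1.93 and 1.77 in males. It lay between 0.88 and 1.13 on every low dose and high dose array. The 6 RAR arrays were therefore all above the other 18. RAR exceeded control by 0.97 ± 0.07 (SE, adjusted p = 2.44e-09, limma), high dose by 0.89 and low dose by 0.94. Neither single dose moved Psmb10 from control by limma (0.08, adjusted p = 0.483, for high dose and 0.03, adjusted p = 0.861, for low dose). Over the alternatives the change from control to RAR ranged from 0.587 to 1.09, past the threshold in 36 of 36. These include Cy5 alone, where the median of all features was 0.52.

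Psme1, a subunit of the interferon-inducible activator, was also highest in RAR. In RAR its level was 0.89, 0.96 and 1.01 in females and 1.03, 0.96 and 0.83 in males. The control arrays gave 0.41, 0.35 and 0.31 in females and 0.35, 0.60 and 0.31 in males, and no array of control, low dose or high dose reached the RAR values. The difference was 0.56 ± 0.06 (SE) from control (adjusted p = 5.79e-07, limma), short of 1.5-fold, 0.60 from high dose and 0.71 from low dose, both past 1.5-fold. Against high dose the fold is 1.51, and it dropped under 1.5-fold on leaving out female high dose replicate 3 (0.58), female RAR replicate 3 (0.58), male high dose replicate 2 (0.58) or male RAR replicate 1 (0.57). From the Cy5 channel alone the differences were 0.15 from control (adjusted p = 0.0635, limma), 0.48 from high dose and 0.47 from low dose, all under 1.5-fold, where the medians of all features were 0.52, 0.31 and 0.29.

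Psmb9, which replaces the caspase-like subunit Psmb6, rose less. Its RAR values were 1.98, 2.15 and 2.13 in females and 2.16, 1.96 and 1.84 in males, above controls of 1.71, 1.66, 1.75, 1.63, 1.71 and 1.62. The change was 0.36 ± 0.06 against control (adjusted p = 0.000166, limma) and 0.49 against both single doses, under 1.5-fold each time. The change against control was 0.10 after quantile normalization between arrays (adjusted p = 0.49, limma), and -0.01 from Cy5 signals alone, a setting that put the all-feature median at 0.52.

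Psmb8 did not follow the other immune subunits against control. Its levels were 2.23, 2.29 and 2.34 in control females and 2.26, 2.34 and 2.24 in control males, and 2.23, 2.35 and 2.41 in RAR females and 2.26, 2.14 and 2.06 in RAR males, so these groups overlapped. At high dose it was 1.81 to 2.00 and at low dose 1.89 to 2.00, below every control array. It fell by 0.37 ± 0.05 at high dose (adjusted p = 4.84e-05, limma) and by 0.34 at low dose (adjusted p = 0.000171, limma), under 1.5-fold, and RAR stood 0.33 above high dose and 0.29 above low dose. RAR differed from control by -0.04 ± 0.05 (adjusted p = 0.615, limma), while normexp and loess gave 0.12 and slide as a block 0.05, so no direction is given. From Cy5 signals alone it was -0.38, with the all-feature median at 0.52.

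**Figure D1:**
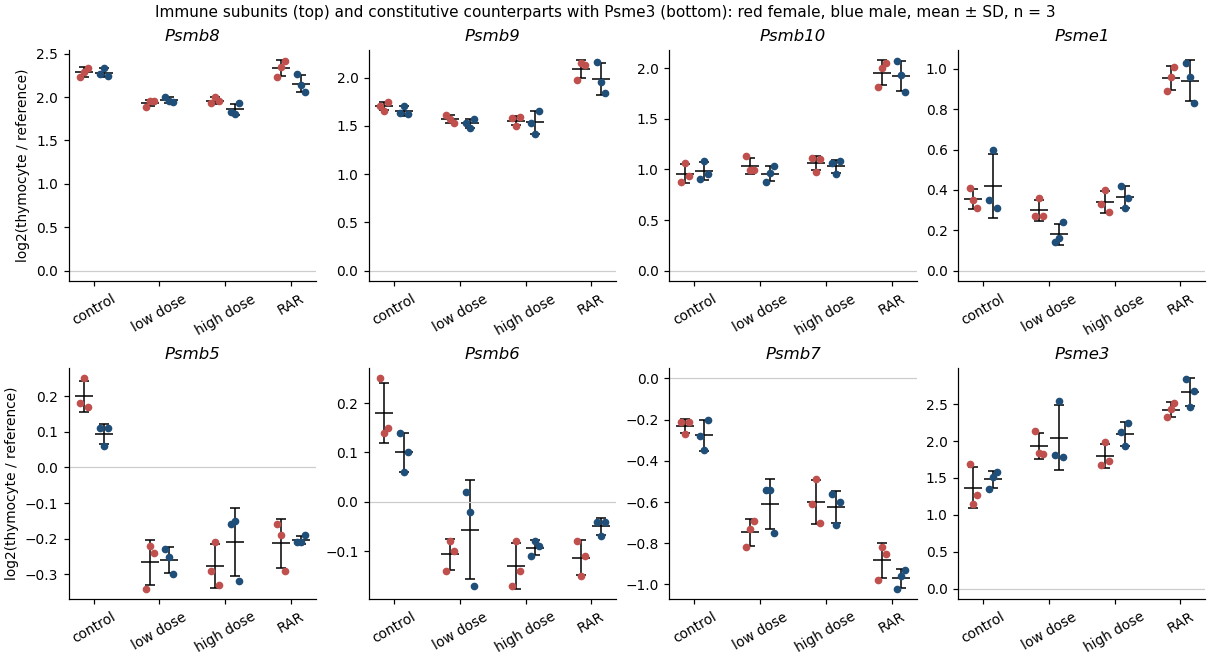
Level on each array (vertical axis, log2 of thymocyte over reference signal) of the 4 immune subunits, the constitutive subunits Psmb5, Psmb6 and Psmb7, and Psme3, by condition, for females (red) and males (blue), with mean and SD of 3 arrays; the vertical axes differ between panels. Psmb10, Psmb9 and Psme1 are highest on the RAR arrays, and Psmb5, Psmb6 and Psmb7 are lower after every irradiation than in controls.

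The constitutive catalytic subunits fell in all irradiated groups. Psmb5, the chymotrypsin-like subunit, had control values of 0.18, 0.25, 0.17, 0.11, 0.06 and 0.11 and RAR values of -0.16, -0.19, -0.29, -0.21, -0.21 and -0.19, with no overlap. Its change was -0.36 ± 0.05 in RAR, -0.39 at high dose and -0.41 at low dose. Psmb6 went from controls of 0.06 to 0.25 to RAR values of -0.15 to -0.04, a change of -0.22 ± 0.05. Psmb7, the trypsin-like subunit, went from -0.35 to -0.20 in controls to -1.02 to -0.82 in RAR, a change of -0.67 ± 0.06 past the threshold, while the single doses gave -0.36 and -0.43.

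Each immune catalytic subunit was then set against the one it replaces, where only the change between conditions can be read, since both levels are relative to the reference. All 3 differences had a higher mean in RAR than in controls, which was not tested. The Psmb10 level minus the Psmb7 level was 1.22 ± 0.13 (SD, n = 6) in controls, 1.68 ± 0.19 at low dose, 1.66 ± 0.11 at high dose and 2.87 ± 0.13 in RAR. Psmb9 minus Psmb6 was 1.54 ± 0.07 in controls and 2.12 ± 0.16 in RAR, and Psmb8 minus Psmb5 was 2.14 ± 0.09 and 2.45 ± 0.16. The arrays overlapped for Psmb8 minus Psmb5, with 2.038 to 2.276 in controls and 2.246 to 2.695 in RAR. In this pair Psmb8 itself changed by -0.04 in RAR and Psmb5 by -0.36. The single doses moved the Psmb9 and Psmb8 differences by 0.12 or less.

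Averaged over genes on each array, the immune mean minus the constitutive mean was 1.31 ± 0.08 (SD, n = 6) in controls, 1.45 ± 0.05 at low dose, 1.48 ± 0.05 at high dose and 2.14 ± 0.09 in RAR. The lowest RAR array, 2.02, was above the highest of the other 18, 1.56. In females RAR reached 2.13 ± 0.07 (n = 3) and in males 2.15 ± 0.13 (n = 3). From control to RAR the immune mean rose by 0.46 on the log2 scale, from 1.33 to 1.79, and the constitutive mean fell from 0.02 to -0.35.

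**Figure D2:**
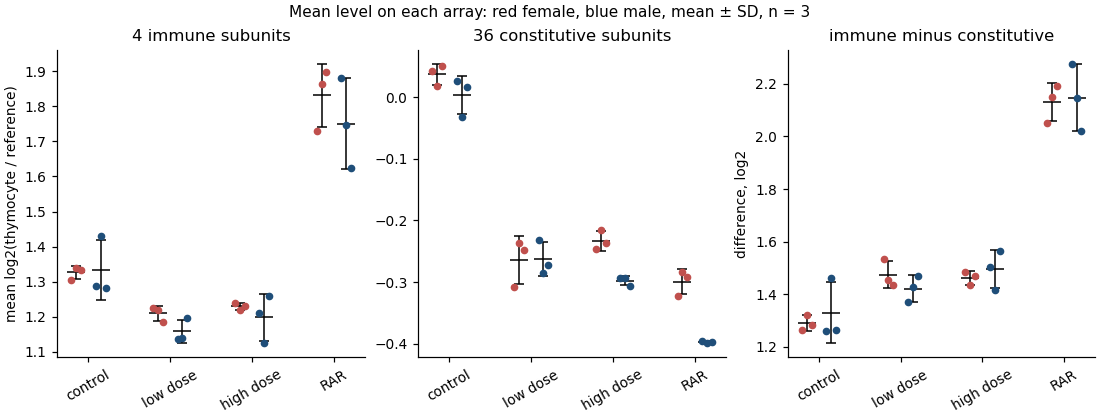
Mean log2(thymocyte/reference) of the 4 immune subunits (left), of the 36 constitutive subunits (middle) and their difference (right) on each array by condition, females in red and males in blue, with mean and SD of 3 arrays. The RAR arrays lie from 2.02 to 2.28 in the difference, above all other arrays, and the constitutive mean is lower in every irradiated group than in controls.

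Among the α ring subunits, which form the outer rings of the core, 6 of 7 fell in RAR by adjusted p and 7 of 7 fell at each single dose. Of all features 21.8% fell by adjusted p in RAR, 13.5% at high dose and 12.4% at low dose. Of bright features 42.1%, 28.4% and 26.1% fell. Psma6 fell most, from 0.64 to 0.84 in controls to -0.27 to 0.01 in RAR, a change of -0.87 ± 0.06 (adjusted p = 2.93e-09, limma), against -0.55 at high dose and -0.52 at low dose. Psma7 fell by 0.63 on the log2 scale, past the threshold. Psma3 differed from control by -0.01 in RAR (adjusted p = 0.916, limma).

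The constitutive β subunits all fell in RAR by adjusted p, 7 of 7, against 21.8% of all features and 42.1% of bright features. Past the threshold 2 of them fell, against 13.7%. Psmb2 was 1 of these, at -0.59 ± 0.12, but its RAR arrays overlapped the controls: the females gave -0.94, -0.80 and 0.05 and the males -1.17, -1.24 and -1.28, against -0.48 to -0.19 in controls. The value of 0.05 is from the dimmest array, female RAR replicate 3, and the change was -0.74 without it. With slide as a block it was -0.23 (adjusted p = 0.407, limma).

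Of the ATPases, 6 of 6 fell in RAR by adjusted p, against 21.8% of all features and 42.1% of bright features. Psmc4 alone passed 1.5-fold, from 0.52 to 0.63 in controls to -0.28 to 0.01 in RAR, a change of -0.71 ± 0.06. Psmc6 fell by 0.53 on the log2 scale in RAR and by 0.14 and 0.12 at high and low dose (adjusted p = 0.192 and 0.302, limma). RAR differed from high dose by -0.39 and from low dose by -0.41 for this gene, past the adjusted p but under 1.5-fold.

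Of the 11 non-ATPase subunits of the regulatory particle, 9 fell in RAR by adjusted p, against 21.8% of all and 42.1% of bright features. Past the threshold 4 of the 11 fell, against 13.7% of all features. Psmd14, the deubiquitinase of the lid, went from 0.50 to 0.74 in controls to -0.34 to 0.08 in RAR, a change of -0.71 ± 0.07, and fell by 0.61 at high dose and 0.57 at low dose. Psmd6, Psmd7 and Psmd8 fell by 0.70, 0.70 and 0.59 in RAR. Psmd8 held its call in 28 of 36 alternatives and lost it without female control replicate 1, female RAR replicate 1, male control replicate 3 or male RAR replicate 1 (-0.574 to -0.563). Psmd4, a ubiquitin receptor, differed by -0.08 (adjusted p = 0.396, limma) and Psmd1 by -0.13 (adjusted p = 0.067, limma).

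Psmd5, Psmd9 and Psmd10 are chaperones that help to assemble the regulatory particle. Psmd9 fell most of all members in RAR, from -0.35 to -0.03 in controls to -1.14, -1.06 and -1.09 in females and -1.67, -1.42 and -1.45 in males. The change was -1.12 ± 0.07, or 2.18-fold lower (adjusted p = 3.16e-10, limma), and -0.65 at high dose and -0.59 at low dose. Psmd5 fell by 0.74. Psmd10 gave -0.01 in RAR by the feature used here and -0.91 by a dimmer feature of the same gene (adjusted p = 4.75e-08, limma), so its change is uncertain. Of 9 members with another feature, 8 had the same sign in RAR against control, and Psmb5 (-0.65), Psmc3 (-0.70) and Psmd12 (-0.66) passed the threshold only by their other feature.

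The activators other than the immune pair did not move together. Psme3, which caps a nuclear form of the proteasome, rose at every dose, from 1.15 to 1.69 in controls to 1.68 to 2.25 at high dose, 1.78 to 2.55 at low dose and 2.32 to 2.84 in RAR. Its change was 0.52 ± 0.13 at high dose, 0.56 ± 0.13 at low dose and 1.12 ± 0.13 in RAR (adjusted p = 1.40e-06, limma), of which only the last passed 1.5-fold. Over the alternatives the adjusted p (limma) of the Psme3 rise reached 0.319 at high dose and 0.0592 at low dose. RAR exceeded high dose by 0.59 (adjusted p = 0.0032, limma), past the threshold, but fell under 1.5-fold on leaving out female high dose replicate 1 (0.56) or replicate 3 (0.58), female RAR replicate 3 (0.57), male high dose replicate 2 (0.55) or male RAR replicate 1 (0.55). The difference was 0.46 after quantile normalization (adjusted p = 0.0154, limma). From Cy5 alone it was 0.23 (adjusted p = 0.0947, limma), with the all-feature median at 0.31. Psme4 gave -0.02 (adjusted p = 0.889, limma).

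**Figure D3:**
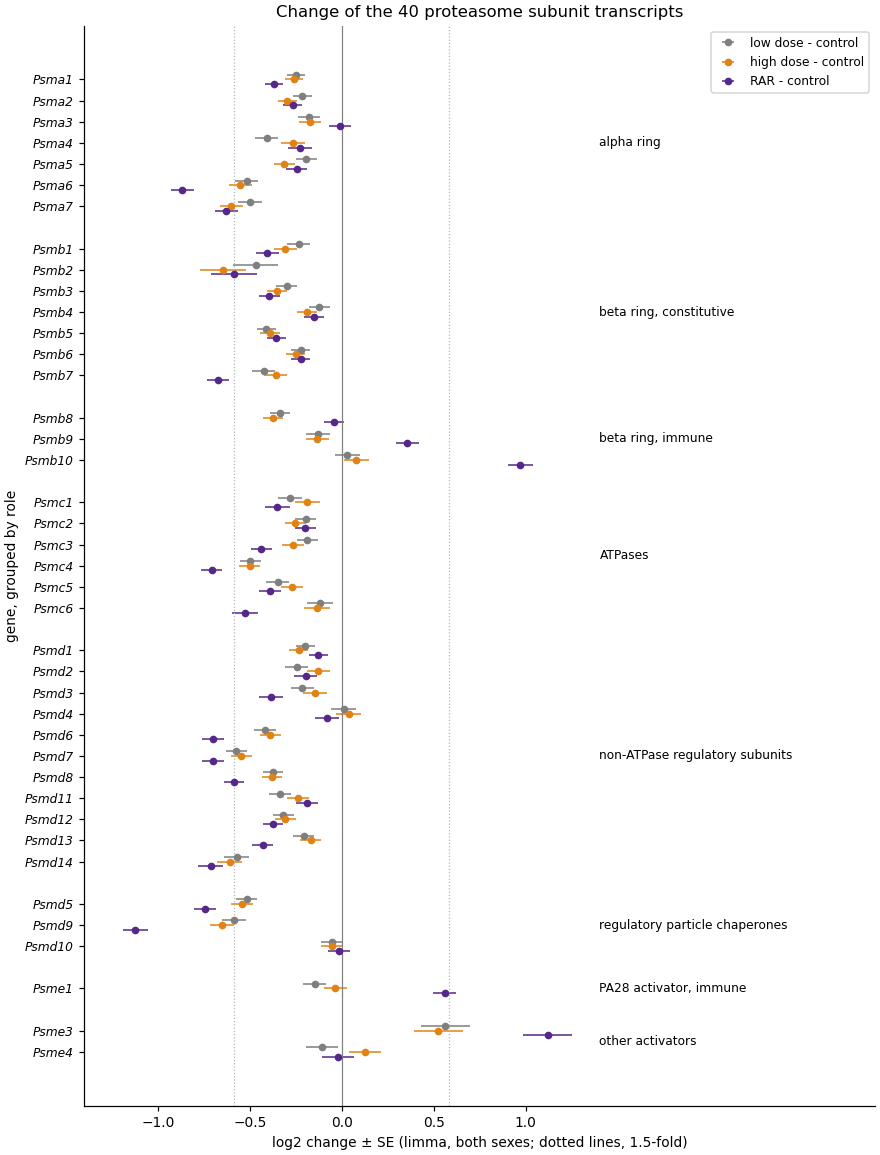
Change from control on the log2 scale, with its SE, of the 40 subunits after low dose (grey), high dose (orange) and RAR (purple), averaged over both sexes and grouped by role; dotted lines mark 1.5-fold. Most constitutive subunits lie left of 0 in all 3 comparisons, while Psmb10, Psme1, Psmb9 and Psme3 lie right of 0 in RAR.

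Each single dose lowered most constitutive subunits by adjusted p in the main fit, 29 of 36 at high dose and 30 of 36 at low dose. The difference between the doses was not tested. Not all of these falls held in every alternative. At high and low dose the adjusted p (limma) reached 0.470 and 0.413 for Psmb1 and 0.695 and 0.467 for Psmd1. For Psma6 it reached only 0.0026 and 0.00038. Against control, high dose raised 0 members past the threshold and lowered 4 (Psmd9, Psmb2, Psmd14 and Psma7), where 5.89% of all features rose and 5.63% fell. By adjusted p alone 1 rose and 30 fell, against 10.3% and 13.5% of all features and 28.4% of bright features falling. Low dose raised 0 and lowered 1, Psmd9, against 5.09% and 4.83%. By adjusted p alone 1 rose and 31 fell at low dose, against 9.39% and 12.4% of all features and 26.1% of bright ones falling. With dim features left out, 18.6% of features passed the threshold in either direction at high dose and 17.0% at low dose. With slide as a block Psmd9 alone kept the high dose call, and Psmb2 was -0.29 (adjusted p = 0.385, limma), Psmd14 -0.53 and Psma7 -0.56. Psmd14 also fell short of 1.5-fold without female control replicate 3 (-0.583), and Psma7 without that array (-0.565), male control replicate 3 (-0.578) or male high dose replicate 1 (-0.579). The low dose call of Psmd9 held in 24 of 36 alternatives and was lost without female control replicate 1, female low dose replicate 1 or 3, male control replicate 1 or 3, or male low dose replicate 2 (-0.583 to -0.557). The median change of the constitutive subunits was -0.27 at both doses, beside -0.02 and -0.01 over all features, and that of the immune subunits -0.08 and -0.14. Arrays did not overlap for 26 members at high dose and 31 at low dose, against 14.4% and 13.2% of features. High dose and control arrays lay mostly on different slides. These comparisons and that of RAR share the control arrays.

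Against each single dose, all 4 immune subunits were higher in RAR by adjusted p. Against high dose 3 members rose (Psmb10, Psme1 and Psme3) and 0 fell, against 5.29% and 4.23% of features. By adjusted p alone 5 rose, among them 4 of 4 immune subunits, and 11 fell, against 9.18% and 12.6%. Against low dose 2 rose (Psmb10 and Psme1) and 0 fell, against 4.78% and 4.29%. By adjusted p alone 6 rose against low dose, again with 4 of 4 immune subunits, and 10 fell, against 8.65% and 12.7%. With dim features left out, 15.15% of features passed the threshold in either direction against high dose and 15.43% against low dose. The median change was 0.54 for immune and -0.10 for constitutive subunits against high dose, and 0.60 and -0.09 against low dose. These comparisons share the RAR arrays.

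Both sexes showed the RAR pattern. In females 11 members passed the threshold in RAR against control (20.5% of all features did) and in males 14 (24.6%), of which 10 passed in both. The sign was the same for 36 of 40 members, and across the 40 genes, which share arrays and are no replicates, the changes of the sexes correlated with r = 0.95. For high dose the counts were 2 in females (7.89%) and 5 in males (10.6%), for low dose 2 (8.77%) and 2 (6.65%), and for RAR against high dose 3 (7.30%) and 1 (5.89%). Between male and female RAR arrays 0 members passed the threshold (0.438% of features did), and 11 had an unadjusted p under 0.05 (limma). The share of all features under that unadjusted cut is not given here, so the 11 is not read as particular to these genes. By adjusted p alone Psmd10 differed, at -0.39 ± 0.08 (SE; adjusted p = 0.0491, limma; 0.454% of features), with RAR males at -0.06, -0.28 and -0.02 and RAR females at 0.26, 0.33 and 0.22. Its control females, at 0.13, 0.18 and 0.19, also lay above its control males, at -0.03, 0.04 and 0.01. For the interaction of sex and treatment 2 members had an unadjusted p under 0.05 (limma), again without the share of all features. By adjusted p an interaction was found for 0 members (limma) and for 0.00359% of features. It was found for 19 of 40 members when the most distant value of each group was left out, so the count depends on that choice. That setting narrows the spread within groups and also raised the calls over all features. These went from 9.524% to 22.8% for RAR against high dose and from 26.04% to 36.51% for RAR against control. The share of all features with an interaction in that setting is not given here, so the 19 is not read as particular to these genes.

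**Figure D4:**
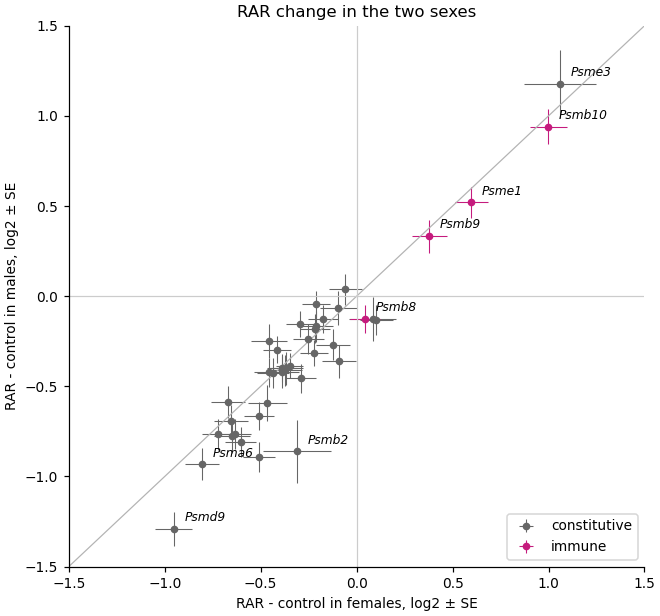
Change from control to RAR in males (vertical) against that in females (horizontal), log2 with SE, for the 40 subunits, immune ones in magenta; the diagonal marks equal change. Points follow the diagonal, with Psmd9 lowest and Psme3 and Psmb10 highest in both sexes.

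Arrays of the same sex and slide allowed few comparisons. RAR and control met only among males on slide 2, 1 array each, where Psmb10 differed by 1.16, Psme1 by 0.68, Psmb9 by 0.54 and Psmb8 by -0.0041, and 34 of 36 constitutive subunits were lower. RAR exceeded high dose for 4 of 4 immune subunits in each of the 3 such comparisons.

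Genes that act with the proteasome were read from the same fit. Of 5 assembly factors measured, 4 fell past the threshold in RAR, 3 at high dose and 1 at low dose, where 13.7%, 5.63% and 4.83% of all features fell. Psmg1, a chaperone of the α ring, fell by 0.88, 0.70 and 0.61, while Pomp, which helps the β subunits mature, gave -0.14 in RAR (adjusted p = 0.0537, limma). Of 13 partners that bind the proteasome 7 fell and 0 rose in RAR, against 13.7% and 12.4% of all features, with Ubqln4, a ubiquitin shuttle, at -1.13. Of the 4 ubiquitin genes 0 passed the threshold in either direction in the 5 comparisons (limma), with list medians of -0.17 to -0.07.

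All 14 interferon-stimulated genes measured rose in RAR against control, high dose and low dose, and 12 and 10 of them at high and low dose against control, with medians of 3.44, 0.87 and 0.72 against control. Of all features 12.4%, 5.29% and 4.78% rose in these RAR comparisons, and 5.89% and 5.09% at high and low dose against control. Irf1, a transcription factor induced by interferon, rose by 1.53 in RAR, 1.07 at high dose and 0.97 at low dose, although another feature of the gene, above background on 2 of 24 arrays, gave 0.03 in RAR. Nlrc5, the activator of MHC class I genes, rose by 1.88, 0.71 and 0.71. Nfe2l1, the factor that induces proteasome genes when proteolysis is blocked, gave -0.39 (adjusted p = 0.136, limma), and Ngly1, the enzyme that removes glycans from it, fell by 1.63 in RAR. Of the 11 class I genes 5 rose and 1, Erap1, fell in RAR, against 12.4% and 13.7% of all features, and those that rose included the light chain B2m at 1.38, the heavy chain H2-K1 at 1.55 and the peptide transporter Tap1 at 0.64.

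Psmb11, the epithelial catalytic subunit, fell after every irradiation. Its level was 4.51, 3.77, 3.06, 4.67, 4.25 and 3.32 in controls and between -1.72 and 1.27 on all irradiated arrays. It was well above background on 6 of 6 control arrays and on 2 of the other 18, so its fold carries only a bound and is not given. The other thymic epithelial markers moved both ways in RAR, with Prss16 at -1.73 and Krt8 at 1.33.

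**Figure D5:**
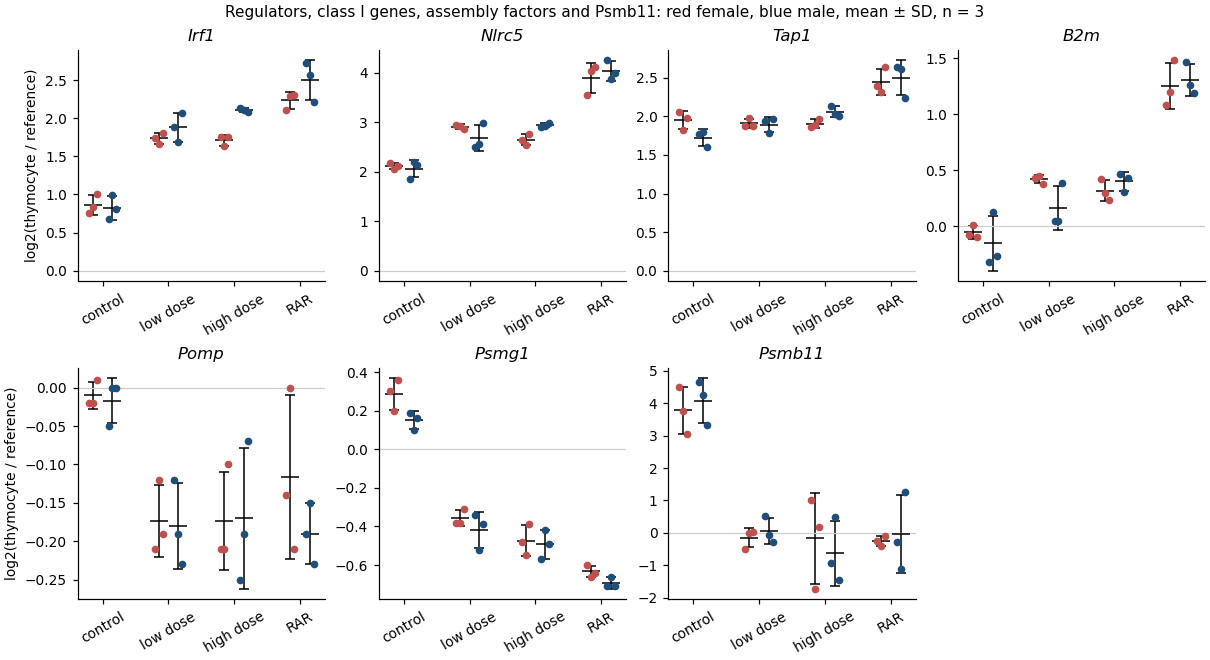
Level on each array (log2 of thymocyte over reference signal) of Irf1, Nlrc5, Tap1, B2m, Pomp, Psmg1 and Psmb11 by condition, females in red and males in blue, with mean and SD of 3 arrays; the vertical axes differ. Nlrc5, Tap1 and B2m are highest in RAR, Psmg1 is lower in every irradiated group, and Psmb11 is high only in controls.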

How the data were processed

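The 24 Agilent arrays carried 2 colours, and the labels placed them in 8 groups of 3. The authors deposited, for each array, Feature Extraction output (version 11.5.1.1 per the file headers) with Cy5 and Cy3 intensity, background subtracted and dyes normalized on each array, and a series table whose log2 ratios matched those signals within 0.01. Flags and other descriptive columns deposited with them were also read. Log2(Cy5/Cy3) was computed from the processed intensities without outlier-flagged spots (183 to 368 per array), and 1 value per feature was kept.

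limma (version 3.58.1, R 4.3.3) fitted 8 group means over the 24 arrays, with contrasts averaged over both sexes and Benjamini-Hochberg adjustment over 55681 features; the threshold was an adjusted p under 0.05 and 1.5-fold. The procedure was tested on simulated data. The number of arrays limits the precision. Array numbers are mice per the methods. Gene names came from RefSeq by accession (28026 features named).

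Members, gene lists and tests were chosen with earlier results of these data known. All members could be named; those shown on every array were the immune genes, their counterparts, and up to 3 rises and 3 falls per comparison past the threshold without overlap. Alternatives covered normalization, filters, blocks, weights, thresholds and each array left out; 1 (leaving out the brightest and the dimmest female RAR arrays) was added after the data were seen. 0 value columns were unmatched. The protein and RT-PCR measurements were not analysed here, and 1 gene of the fixed lists is not reported here.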

Additional observations from a re-analysis of the deposited data

Results flagged for a closer look

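Psme2, the partner of Psme1, had no feature under the rule, but 3 features carried accessions of Psme2b, a near-identical copy, and lay outside the comparisons above. In RAR they exceeded control by 1.14, 0.65 and 1.42 on the log2 scale (limma, adjusted p = 1.39e-09, 3.13e-07 and 2.31e-06), with no overlap between the 6 RAR and the 6 control arrays for any of them. Against high dose they rose by 1.12, 0.85 and 0.94. Whether the signal came from Psme2, from Psme2b or from both was not tested. Outliers within groups were not sought, since groups held 3 arrays.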

How the results depend on the processing

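Of the values of single members under the alternatives, 7076 kept their side of the threshold, 68 dropped below it, 56 rose past it and 0 reversed a call. Values short of the threshold changed sign in some alternatives. Psmc2 in RAR against low dose did so in 11 of 36, and Psma3 in RAR against control in 7 of 36. The causes of the moves below were not tested. From Cy5 alone the median of all features was 0.52 in RAR against control.

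By adjusted p alone the value became 31 (high dose against control, main 4), 32 (low dose against control, main 1), 34 (RAR against control, main 13), 16 (RAR against high dose, main 3), 16 (RAR against low dose, main 2), 20 (high dose against control, female, main 2), 26 (high dose against control, male, main 5), 23 (low dose against control, female, main 2), 18 (low dose against control, male, main 2), 29 (RAR against control, female, main 11), 29 (RAR against control, male, main 14), 9 (RAR against high dose, female, main 3), 11 (RAR against high dose, male, main 1), 1 (male against female RAR, main 0). With a log2 change over 1.5 the count was 0 in every comparison that had called members. After normexp and loess the value became 0 (high dose against control, main 4), 0 (low dose against control, main 1), 5 (RAR against control, main 13), 1 (high dose against control, female, main 2), 1 (high dose against control, male, main 5), 1 (low dose against control, female, main 2), 1 (low dose against control, male, main 2), 6 (RAR against control, female, main 11), 7 (RAR against control, male, main 14), 2 (RAR against high dose, male, main 1). After quantile normalization between arrays the value became 2 (high dose against control, main 4), 4 (high dose against control, female, main 2), 1 (high dose against control, male, main 5), 5 (low dose against control, female, main 2), 0 (low dose against control, male, main 2), 8 (RAR against control, male, main 14). With median-centred arrays the value became 1 (high dose against control, female, main 2), 8 (high dose against control, male, main 5), 2 (RAR against high dose, male, main 1). From Cy5 alone the value became 13 (high dose against control, main 4), 7 (low dose against control, main 1), 23 (RAR against control, main 13), 1 (RAR against high dose, main 3), 15 (high dose against control, female, main 2), 11 (high dose against control, male, main 5), 8 (low dose against control, female, main 2), 21 (RAR against control, female, main 11), 22 (RAR against control, male, main 14), 1 (RAR against high dose, female, main 3), 0.713 (RAR minus control, main 0.83). With slide as a block the value became 1 (high dose against control, main 4), 0 (low dose against control, main 1), 3 (high dose against control, male, main 5), 2 (RAR against high dose, male, main 1). With array weights the value became 0 (low dose against control, main 1), 1 (low dose against control, male, main 2). Without the most distant value per group the value became 2 (low dose against control, main 1), 4 (high dose against control, female, main 2), 2 (RAR against high dose, male, main 1), 19 (sex by treatment interaction, main 0). With the mean of all features of a gene the value became 0 (low dose against control, main 1), 2 (RAR against high dose, male, main 1). With medians over members the value became 0.283 (high dose minus control, main 0.17), 0.288 (low dose minus control, main 0.138), 1.08 (RAR minus control, main 0.83). Leaving out each array in turn gave 2 to 5 (high dose against control), 0 to 3 (low dose against control), 11 to 14 (RAR against control), 1 to 3 (RAR against high dose), 2 to 3 (RAR against low dose), 1 to 3 (high dose against control, female), 4 to 5 (high dose against control, male), 1 to 6 (low dose against control, female), 1 to 3 (low dose against control, male), 10 to 11 (RAR against control, female), 12 to 15 (RAR against control, male), 1 to 3 (RAR against high dose, female), 1 to 2 (RAR against high dose, male), 0 to 1 (male against female RAR), 0 to 0 (sex by treatment interaction), 0.152 to 0.203 (high dose minus control), 0.121 to 0.172 (low dose minus control), 0.798 to 0.863 (RAR minus control). Single arrays moved the count by over 1.5 times for high dose against control (2 without female control 3), low dose against control (2 without female control 1, 3 without male low 1, 0 without female low 1, 3 without female low 2, 2 without female low 3, 0 without male control 1, 0 without male low 2, 3 without male low 3), RAR against high dose (1 without female high 3, 1 without female RAR 3, 1 without male high 2, 1 without male RAR 1), high dose against control, female (1 without female control 3, 1 without female high 2), low dose against control, female (6 without female control 1, 4 without female control 2, 1 without female control 3, 1 without female low 1, 4 without female low 2), low dose against control, male (1 without male control 3, 1 without male low 2), RAR against high dose, female (1 without female RAR 3), RAR against high dose, male (2 without male high 1, 2 without male RAR 2, 2 without male RAR 3), male against female RAR (1 without female RAR 1). Without the brightest and the dimmest female RAR array, an alternative added after seeing the data, RAR against high dose gave 1, in both sexes together and in females.

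Replicate numbers did not pair the arrays: residuals of arrays with the same number correlated at a median of -0.0036. With the replicate block RAR against control gave 13 members, and moved no other count by over 1.5 times.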
